A study of Mus musculus with 8 samples.

Results

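The genes described here drive DNA replication and cell division, and they were taken as the 58 genes of a fixed list of replication, mitosis and cell cycle control genes. The list was chosen with earlier results of these data known. Every probe set on the array whose annotation gives exactly 1 gene symbol, that symbol being on the list, was counted as a member. This gave 133 probe sets for 57 genes out of 45101 probe sets in all, and 1 listed gene, Ccnb1, was not matched. The 57 genes comprise 30 of replication and the G1/S step, 25 of mitosis, and the inhibitor genes Cdkn1a and Cdkn1b. They were followed in mouse small intestine at 18.5 days post coitum, in 4 Plagl2 knockout samples and 4 wild-type samples, each hybridised to 1 Affymetrix MOE430 2.0 array. Plagl2 is a DNA-binding zinc finger protein related to Plag1. Strain, litter, sex and the deleted part of the gene are not stated in the labels, so the p-values here measure spread between 8 samples that may in part be technical.

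Plagl2 itself (1417517_at) gave signals of 3, 6, 5 and 11 in knockout replicates 1 to 4, against 824, 817, 697 and 796 in wild-type replicates 1 to 4. The groups follow the sample titles, although the extraction text of every sample speaks of wild-type intestine. Wild-type replicate 3 stood apart from its group: on the first principal component of all tested probe sets the knockouts lay at 35.7 to 40.7, wild-type replicate 3 at -21.9 and the other wild-types at -44.7 to -43.3. Where leaving out this array changed the call of a gene named here, both values are given. Xist gave 1828 and 1410 in knockout replicates 2 and 3 and 20 to 47 in the other 6 arrays, so sex was not balanced between genotypes. RNA integrity was read from control transcripts as the end ratio, the log2 signal at the 3' end less that at the 5' end. It was 0.0174 to 0.0978 in knockouts and -0.0554 to 0.0066 in wild-types, lowest in wild-type replicate 3. Both were also used as covariates.

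Before a cell divides, origins of replication are licensed by loading the MCM helicase, and the helicase is then activated so that polymerases can copy the DNA. E2F transcription factors raise the genes of this step once cyclin-dependent kinases have inactivated the retinoblastoma family. Genes of mitosis peak later and are controlled through the CCAAT box and a short element called CHR, bound by the NF-Y factor and by MuvB complexes with B-MYB and FOXM1. In the fetal intestine dividing cells lie between the forming villi and in the surrounding mesenchyme and muscle, and enterocytes leave the cycle as they differentiate. The arrays were made from whole intestine, so a change in the number of dividing cells and a change in RNA per cell cannot be told apart.

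Most replication and mitosis genes had slightly higher signals in the knockout, though few passed the test. By the brightest probe set of each gene, 48 of 57 log2 fold changes (knockout over wild-type) were above 0, against 53.3% of all 12838 genes tested. The median log2 fold change was 0.27 for 30 replication genes, 0.34 for 25 mitosis genes and 0.03 for all genes tested. The inhibitor genes Cdkn1a and Cdkn1b, both called, rose by 1.31 and 0.61. Fold changes here are on the scale log2(signal + 16). All 57 genes had at least 1 probe set bright enough for the test, as did 108 of the 133 probe sets.

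Of the 108 probe sets tested, 10 were called higher in the knockout and 0 lower, where 5.28% of all 27022 probe sets were called higher and 6.70% lower. A call is a Benjamini-Hochberg adjusted p under 0.05 in limma across all probe sets, two-sided. The 10 probe sets belong to the replication genes Gmnn, Mcm5 and Pcna, the mitosis genes Aurkb, Cdc20 and Kif23, and the inhibitor genes Cdkn1a and Cdkn1b. By class, 3 of 59 replication, 4 of 45 mitosis and 3 of 4 inhibitor probe sets were called. The share of replication probe sets called was thus near that of all probe sets. Counted by the brightest probe set, 7 of 57 genes were called higher and 0 lower, against 6.60% and 8.50% of all genes. The 7 were 2 of 30 replication genes, again near the share of all genes, 3 of 25 mitosis genes and 2 of 2 inhibitor genes. At an unadjusted p under 0.05, 26 of 57 genes were higher and 1 lower, against 14.7% and 15.0% of all genes. In 6 of the 57 genes every knockout lay above every wild-type, and in 0 every knockout lay below, where 8.88% and 11.1% of all genes had groups without overlap.

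Wild-type replicate 3 was the array whose removal changed the number of called probe sets most. Its signal was the highest of the wild-types in 48 of 57 genes (84.2%), against 34.3% of all genes tested, and it was not below the lowest knockout in 51 (89.5%), against 77.5%. Without that array 33 of 108 probe sets were called higher, the 10 above among them, against 7.72% of all probe sets, and the medians were 0.39 for replication genes, 0.43 for mitosis genes and 0.03 for all genes. By the brightest probe set 21 of 57 genes were then called higher and 0 lower, against 9.31% and 10.3% of all genes. That array was singled out from these same data as the wild-type nearest the knockouts. A gain in calls without it was thus favoured by the choice, and such calls are description and not added support. The other arrays mattered too. With wild-type replicate 1, 2 or 4 left out 4 probe sets were called, and without knockout replicates 1, 2, 3 or 4 the counts were 5, 4, 12 and 5. The calls of Gmnn, Mcm5, Pcna, Aurkb, Cdc20 and the brighter Kif23 probe set each ended without wild-type replicate 1, 2 or 4 (limma adjusted p = 0.0515 to 0.132) and without knockout replicate 2 (0.0955 to 0.13). Without knockout replicate 1 all of these but Gmnn ended (0.0829 to 0.117), without knockout replicate 4 all but Kif23 (0.0791 to 0.0913), and without knockout replicate 3 those of Pcna and Kif23 (0.0592 and 0.0651). The calls of the other Kif23 probe set, Cdkn1a and Cdkn1b held with each array left out. With Xist as a covariate 5 probe sets were called, of Bub1b, Kif23, Cdkn1a and Cdkn1b, and the calls of Gmnn, Mcm5, Pcna, Aurkb, Cdc20 and the brighter Kif23 probe set ended (limma adjusted p = 0.0584 to 0.219). With the end ratio as a covariate 1 probe set was called, of Cdkn1a, while the medians were 0.49 for replication genes and 0.46 for mitosis genes. Every knockout had a higher end ratio than every wild-type, so this fit separates the ratio from genotype poorly.

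**Figure D1:**
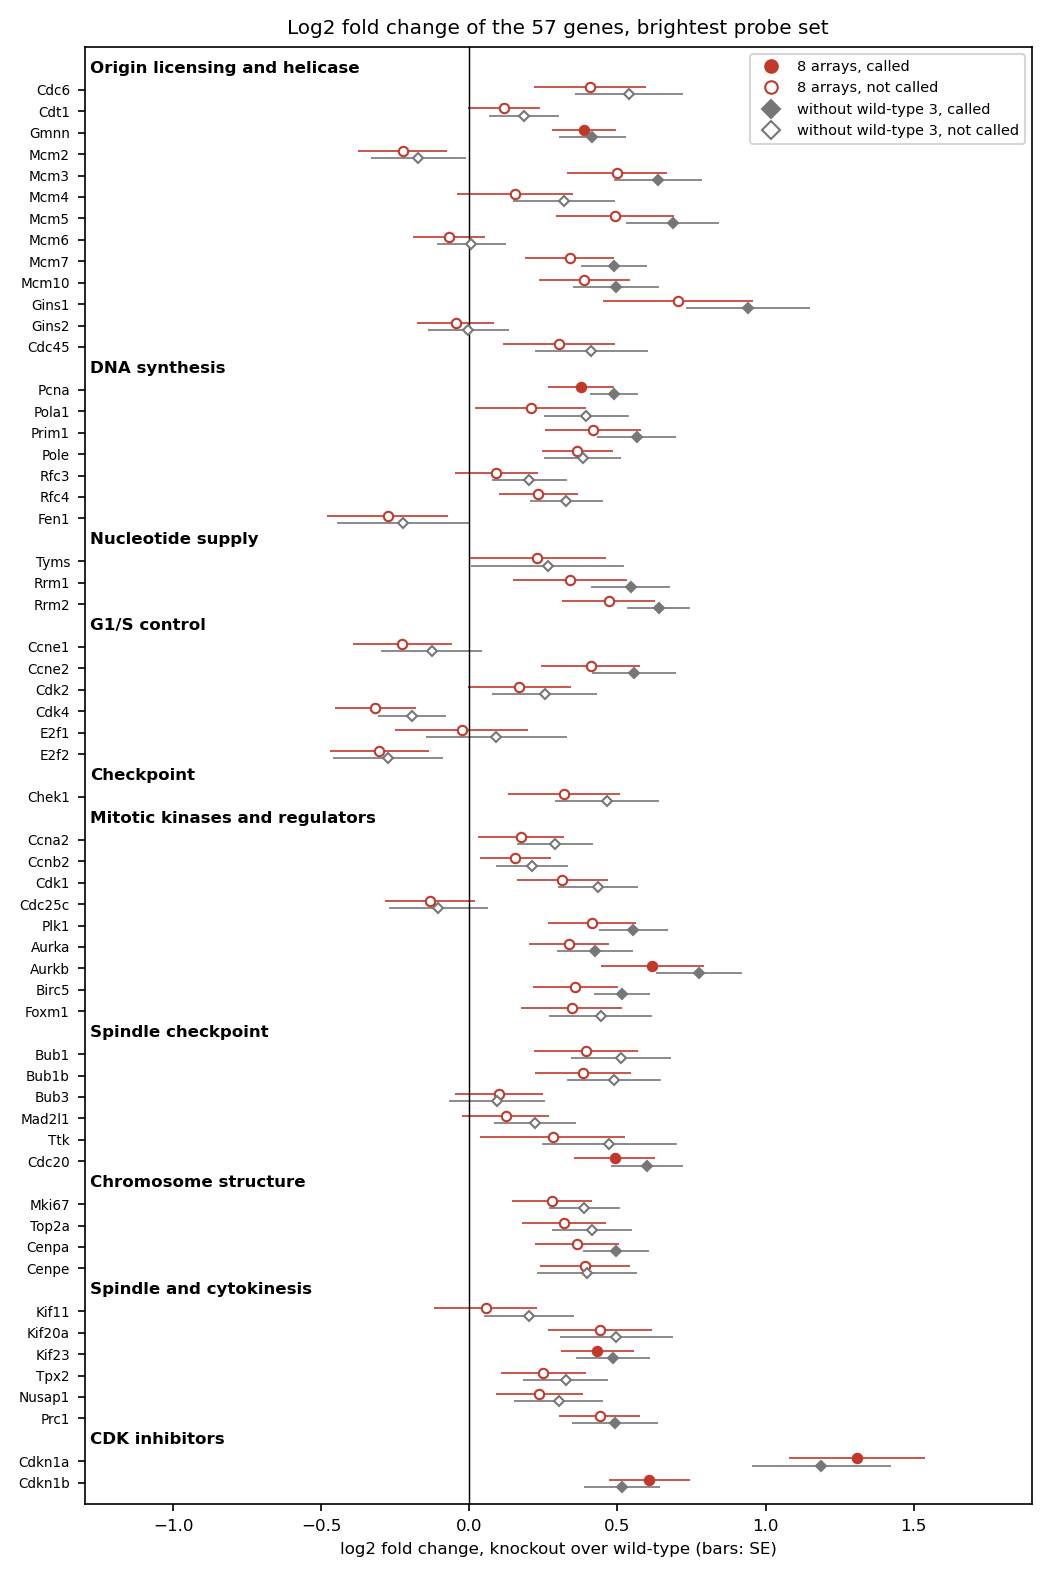
Log2 fold changes (knockout over wild-type, horizontal axis, bars are SE) of the 57 genes by their brightest probe set, grouped by role down the page. Red circles are from 8 arrays and grey diamonds from 7 arrays without wild-type replicate 3, filled where called; most points lie right of 0, at a median of 0.27 for replication and 0.34 for mitosis genes, and Cdkn1a lies furthest right at 1.31.

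Promoters of a pair of called replication genes, Mcm5 and Pcna, and a pair of called mitosis genes, Cdc20 and Kif23, are shown as examples of the elements each class carries. The windows run from 250 bases before to 50 bases after the start of transcription (RefSeq, GRCm38.p6, read 5' to 3' on the gene's strand). Capitals mark matches on either strand to the E2F motif (TTCCCGC or TTCGCGC or TTGGCGC or TTGCCGC), to the letters CCAAT of the CCAAT box, or to the CHR element (TTTGAA or TTCGAA). Mcm5 lies at chr8:75109259-75109558 (plus strand), Pcna at chr2:132253131-132253430 (minus), Cdc20 at chr4:118437294-118437593 (minus) and Kif23 at chr9:61946750-61947049 (minus).
Mcm5: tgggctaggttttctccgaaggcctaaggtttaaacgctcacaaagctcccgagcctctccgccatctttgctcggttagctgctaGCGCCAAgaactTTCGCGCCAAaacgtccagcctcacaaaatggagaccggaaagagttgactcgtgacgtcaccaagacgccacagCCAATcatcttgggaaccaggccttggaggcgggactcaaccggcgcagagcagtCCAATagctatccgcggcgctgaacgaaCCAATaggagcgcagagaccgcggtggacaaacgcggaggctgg
Pcna: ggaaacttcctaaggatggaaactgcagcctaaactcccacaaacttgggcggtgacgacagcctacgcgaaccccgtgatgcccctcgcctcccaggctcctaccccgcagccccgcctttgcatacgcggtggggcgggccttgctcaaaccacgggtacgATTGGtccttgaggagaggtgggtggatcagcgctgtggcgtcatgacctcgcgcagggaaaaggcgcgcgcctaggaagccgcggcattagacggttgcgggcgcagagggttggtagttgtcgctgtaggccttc
Cdc20: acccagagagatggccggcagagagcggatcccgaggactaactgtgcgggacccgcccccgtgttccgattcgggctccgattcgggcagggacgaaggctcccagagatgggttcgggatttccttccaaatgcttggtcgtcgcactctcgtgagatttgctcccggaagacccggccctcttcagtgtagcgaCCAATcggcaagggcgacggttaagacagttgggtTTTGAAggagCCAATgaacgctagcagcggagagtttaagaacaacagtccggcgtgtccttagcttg
Kif23: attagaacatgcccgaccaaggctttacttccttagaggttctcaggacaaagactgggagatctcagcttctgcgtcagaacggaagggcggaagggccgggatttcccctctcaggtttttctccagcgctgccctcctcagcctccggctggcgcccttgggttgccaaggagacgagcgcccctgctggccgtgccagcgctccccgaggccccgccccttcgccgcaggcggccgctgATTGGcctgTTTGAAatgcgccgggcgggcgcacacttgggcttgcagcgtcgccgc
In the Mcm5 window E2F matches start at positions -164, -152 and -149, those at -152 and -149 overlapping, and CCAAT matches at -77, -22 and 7. Pcna has a CCAAT match at -87 and 0 matches to these E2F letters. Cdc20 has CCAAT matches at -53 and -8 and a CHR match at -18, and Kif23 has a CCAAT match at -7 and a CHR match at 3.

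Promoters were found for 45 of the 57 genes, with 51 windows, since some genes have several starts. An E2F match was present in 17 of 27 replication windows (63.0%) and 2 of 21 mitosis windows (9.52%), those of Cdk1 and Mki67, against 9.57% of all 32851 windows of the same length. A CHR match was present in 6 of 27 replication windows (22.2%) and 17 of 21 mitosis windows (81.0%), against 19.2% of all. The CCAAT box was present in 63.0% of replication and 85.7% of mitosis windows, against 37.4% of all. All 17 mitosis windows with a CHR match also had a CCAAT match (81.0%), against 18.5% of replication windows and 7.52% of all windows. The mitosis genes without a CHR match in the window were Birc5, Cenpe, Mad2l1 and Nusap1. The 3 windows of Cdkn1a and Cdkn1b held 0 E2F and 0 CHR matches. A match is a description of the letters and not of binding.

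**Figure D2:**
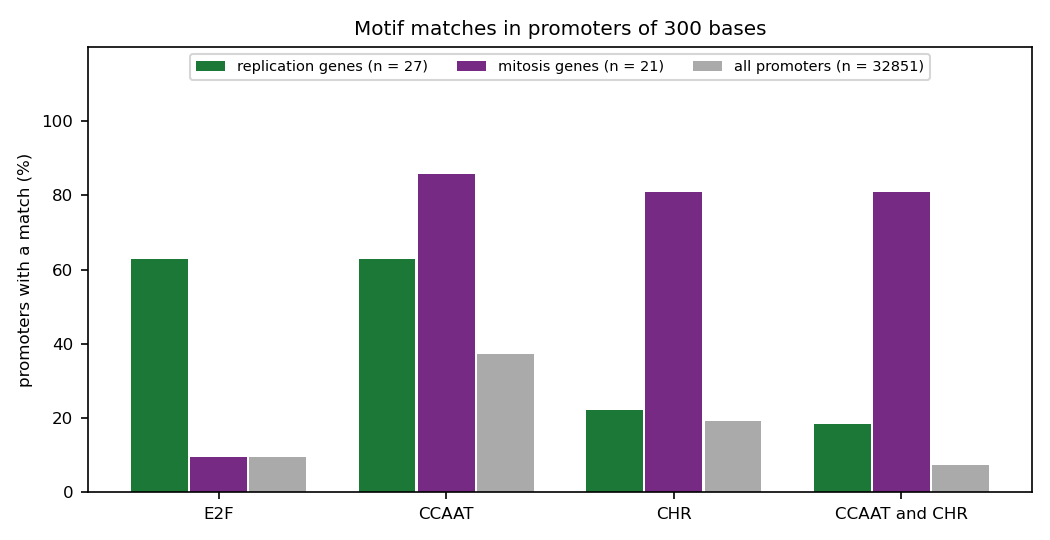
Share of promoter windows (vertical axis, %) with at least 1 match to the E2F, CCAAT and CHR motifs and to both CCAAT and CHR, for replication genes, mitosis genes and all promoters of 300 bases. E2F matches stand at 63.0% in replication and 9.52% in mitosis windows, and CHR matches at 22.2% and 81.0%.

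Among the genes that license and fire origins, 1 of 13 was called by its brightest probe set and 10 had log2 fold changes above 0 (median 0.34). Beside this and each role below, 6.60% of all genes were called higher and 53.3% were above 0. Gmnn encodes geminin, which binds Cdt1 and stops origins being licensed again in the same cycle. Its signal was 583, 704, 633 and 707 in knockout replicates 1 to 4, against 548, 483, 529 and 436 in wild-type replicates 1 to 4. Every knockout lay above every wild-type, and Gmnn rose by 0.39 ± 0.11 on the log2 scale (SE, limma adjusted p = 0.0366), or 1.32 times by the mean signal. It stayed called in 9 of 19 alternatives, with log2 fold changes of 0.33 to 0.50. Its partner Cdt1, which helps load the helicase, had signals of 623 to 852 in knockouts and 571 to 778 in wild-types (log2 fold change 0.12 ± 0.12, adjusted p = 0.605), and Cdc6, a second loader, had 0.41 ± 0.19 (adjusted p = 0.201).

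The helicase subunits Mcm2 to Mcm7, which form 1 ring, did not share a direction. Mcm5 (1415945_at) gave 288, 269, 241 and 292 in knockout replicates 1 to 4, against 180, 178, 250 and 159 in wild-type replicates 1 to 4. Wild-type replicate 3 lay within the knockout range and the other wild-types lay below it. The log2 fold change was 0.49 ± 0.14 (SE, limma adjusted p = 0.0433), with 7 of 19 alternatives keeping the call. The brighter Mcm5 probe set 1436808_x_at had the same log2 fold change of 0.49 with a wider SE of 0.20 and was not called (adjusted p = 0.144, and 0.0135 without wild-type replicate 3).

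Mcm3 (1420028_s_at) gave 469, 468, 322 and 483 in knockouts, against 305, 259, 405 and 252 in wild-types, a log2 fold change of 0.50 ± 0.17 (limma adjusted p = 0.0821). Its other tested probe sets, all dimmer, had -0.001 to 0.35, and none was called with or without wild-type replicate 3. Mcm7 had log2 fold changes of 0.17 to 0.40 over 4 probe sets, its brightest giving 1397 ± 162 in knockouts and 1117 ± 270 in wild-types (SD, n = 4 each, limma adjusted p = 0.18). Mcm4 had 0.15 and 0.31 by its 2 probe sets. Mcm2 and Mcm6 lay the other way or near 0. Mcm2 had -0.23 ± 0.15 (limma adjusted p = 0.389) with signals of 217 to 369 in knockouts and 345 to 405 in wild-types, and Mcm6 had -0.07 ± 0.12 (adjusted p = 0.775). Without wild-type replicate 3, the brightest probe sets of Mcm3, Mcm5 and Mcm7 were called at 0.64, 0.69 and 0.49. Those of Mcm2 and Mcm6 were then at -0.17 and 0.01. Whether the subunits differ from each other was not tested.

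Of the factors that join the ring at the origin, Gins1, a subunit of the GINS complex of the active helicase, had the highest log2 fold change of all replication genes. It gave 115, 135, 118 and 111 in knockouts, against 39, 87, 120 and 46 in wild-types. Wild-type replicate 3 was as high as the knockouts and the spread of the wild-types was wide (log2 fold change 0.70 ± 0.25, limma adjusted p = 0.0995, and 0.94 with 0.0121 without that array). Gins2, of the same complex, had -0.05 ± 0.13 by its brightest probe set and 0.43 by the dimmer 1452881_at, and neither was called. Mcm10, which helps start synthesis, had 0.39 ± 0.15 (limma adjusted p = 0.131), and was called without wild-type replicate 3 (0.49, 0.042). A dim Mcm10 probe set, 1433407_at, had -0.17 and was not called. Cdc45, the third part of the active helicase, had 0.30 ± 0.19 (limma adjusted p = 0.349).

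In DNA synthesis 1 of 7 genes was called and 6 had log2 fold changes above 0 (median 0.23). Pcna encodes the sliding clamp that holds polymerases on DNA. Its signal was 3250, 3045, 3050 and 3286 in knockout replicates 1 to 4, against 2416, 2287, 3074 and 2043 in wild-type replicates 1 to 4. The knockouts lay close together, and wild-type replicate 3 lay among them. Pcna rose by 0.38 ± 0.11 (SE, limma adjusted p = 0.0478), a call kept in 4 of 19 alternatives, and by 0.49 without wild-type replicate 3 (0.0021).

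Pole, the catalytic subunit of the leading strand polymerase, gave 107, 119, 120 and 126 in knockouts and 84, 90, 92 and 86 in wild-types. Its groups did not overlap, but it missed the threshold (0.36 ± 0.12, limma adjusted p = 0.0732). Prim1, the catalytic primase subunit, had 0.42 and 0.49 by its 2 probe sets (limma adjusted p = 0.128 and 0.0605), and both were called without wild-type replicate 3 (0.56 and 0.61, with 0.0159 and 0.0164). Values for the polymerase Pola1 (0.21) and the clamp loader subunits Rfc3 (0.09) and Rfc4 (0.23) were smaller. Fen1, the nuclease that trims Okazaki fragments, had -0.28 by its brightest probe set and 0.13 by 1421731_a_at.

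Of the 3 genes of nucleotide supply, 0 were called. Rrm2, the regulated subunit of ribonucleotide reductase, gave 904, 922, 829 and 984 in knockouts, against 666, 537, 931 and 538 in wild-types. All 3 of its probe sets had log2 fold changes of 0.38 to 0.47 (limma adjusted p = 0.0728 to 0.162), and all 3 were called without wild-type replicate 3 (0.55 to 0.64). Rrm1, the large subunit, had 0.34 ± 0.19 and was called without that array (0.54, limma adjusted p = 0.0185). Tyms, which makes thymidylate, was dim by every matched probe set, its brightest giving 22 to 45 in knockouts and 17 to 32 in wild-types.

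Genes that control entry into S phase did not share a direction, with 2 of 6 above 0 and a median of -0.13. Cdk4, the kinase partner of D cyclins, gave 978, 984, 811 and 991 in knockouts, against 1230, 1077, 1521 and 938 in wild-types. Its log2 fold changes were -0.35, -0.31 and -0.32 over 3 probe sets, and none was called (limma adjusted p = 0.133 to 0.172). Cdk4 was the 1 gene lower by the unadjusted p, and without wild-type replicate 3 it was at -0.19 (adjusted p = 0.289). The E cyclins, partners of Cdk2, had values of opposite sign. Ccne2 had 0.41 ± 0.17 (limma adjusted p = 0.144), and was called without wild-type replicate 3 (0.55, 0.023). Ccne1 had -0.47 by 1416492_at (limma adjusted p = 0.114) and -0.23 by its brighter probe set, and -0.42 and -0.13 without that array, with no call. Cdk2 had 0.17, and the activators E2f1 and E2f2 had -0.03 and -0.30. Both were dim. A second E2f2 probe set had 0.21, and a second E2f1 probe set, 1417878_at, had -0.81 (limma adjusted p = 0.123). The checkpoint kinase gene Chek1 had 0.32 ± 0.19 (limma adjusted p = 0.326).

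Among mitotic kinases and their regulators, 1 of 9 genes was called and 8 were above 0 (median 0.34). Aurkb encodes the kinase of the chromosomal passenger complex, which corrects attachments of chromosomes to the spindle. By 1451246_s_at it gave 194, 213, 164 and 221 in knockout replicates 1 to 4, against 109, 94, 176 and 124 in wild-type replicates 1 to 4. Wild-type replicate 3 exceeded knockout replicate 3, and the other wild-types lay below every knockout. Aurkb rose by 0.62 ± 0.17 (SE, limma adjusted p = 0.0376), or 1.57 times by the mean signal, with 7 of 19 alternatives keeping the call. A second probe set, 1424128_x_at, had 0.19 ± 0.14 and was not called (adjusted p = 0.427).

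Birc5, which encodes survivin of the same complex, gave 810, 783, 773 and 902 in knockouts, against 589, 529, 883 and 582 in wild-types (0.36 ± 0.14, limma adjusted p = 0.14). Without wild-type replicate 3 it was called at 0.51 (adjusted p = 0.0039). Plk1 and Aurka, kinases that build the spindle, had 0.41 and 0.34 and were called without that array (0.55 and 0.43). Cdk1, the kinase that triggers mitosis, gave 723, 776, 614 and 859 in knockouts, against 610, 576, 763 and 452 in wild-types (0.31 ± 0.15, limma adjusted p = 0.223, and 0.0538 without wild-type replicate 3). Its cyclins were at 0.18 and 0.40 for the 2 probe sets of Ccna2 and at 0.16 for Ccnb2, and the Ccna2 probe set at 0.40 was called without that array (0.50, limma adjusted p = 0.0266). The transcription factor gene Foxm1 was dim by its brightest probe set (59 to 86 in knockouts and 45 to 68 in wild-types, 0.35 ± 0.17). A dimmer Foxm1 probe set at 0.67 was called without wild-type replicate 3 (0.91, limma adjusted p = 0.0317). A further dim Foxm1 probe set, 1417748_x_at, lay the other way at -0.20 with and without that array and was not called. Cdc25c, a phosphatase that activates Cdk1, had -0.13 by its brightest probe set and 0.05 by 1456077_x_at.

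In the spindle checkpoint, which holds anaphase until chromosomes are attached, 1 of 6 genes was called and all 6 were above 0 by their brightest probe sets. Cdc20 encodes the activator of the anaphase-promoting complex. By 1439377_x_at it gave 1507, 1468, 1221 and 1582 in knockout replicates 1 to 4, against 1000, 1059, 1285 and 791 in wild-type replicates 1 to 4. The groups overlapped through wild-type replicate 3 and knockout replicate 3 alone. Cdc20 rose by 0.49 ± 0.14 (SE, limma adjusted p = 0.038), kept in 6 of 19 alternatives, while 1416664_at had 0.31 ± 0.13 and was not called (0.149, and 0.0303 without wild-type replicate 3). The kinase genes Bub1 (0.39) and Bub1b (0.38) were not called, and Ttk, a further checkpoint kinase gene, had 0.28 ± 0.24. Bub3 (0.10) and Mad2l1 (0.12), which bind Bub1 and Cdc20, lay near 0. Dimmer probe sets of Ttk (1442594_at) and Bub3 (1448473_at) had -0.24 and -0.04 and were not called. Probe sets whose names end in _s_at or _x_at can pick up related transcripts.

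The 4 genes of chromosome structure had 0.28 to 0.39 by their brightest probe sets, with 0 called. Mki67, the widely used mark of dividing cells, gave 993, 944, 814 and 1077 in knockouts, against 776, 787, 982 and 622 in wild-types. Wild-type replicate 3 lay within the knockouts and the other wild-types below them (0.28 ± 0.14, limma adjusted p = 0.222, and 0.0516 without that array). Top2a, which untangles DNA, had 0.32 ± 0.14 by its brightest probe set (limma adjusted p = 0.182). Cenpa, the histone variant of centromeres, had 0.36 ± 0.14 (limma adjusted p = 0.131) and was called at 0.50 without wild-type replicate 3. A dim Cenpa probe set, 1444416_at, had -0.02. Cenpe, a kinetochore motor, gave 114 to 163 in knockouts and 83 to 109 in wild-types without overlap and was not called (0.39 ± 0.15, adjusted p = 0.128).

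Among genes of the spindle midzone and cytokinesis 1 of 6 was called and all were above 0 by their brightest probe sets. Kif23 encodes a kinesin of the centralspindlin complex, which the closing of the daughter cells needs. By 1453748_a_at it gave 128, 111, 76 and 132 in knockout replicates 1 to 4, against 45, 52, 70 and 35 in wild-type replicates 1 to 4. By the brighter 1455990_at it gave 301, 350, 312 and 269 in knockouts, against 223, 233, 251 and 190 in wild-types. The groups did not overlap by either probe set, wild-type replicate 3 again being the highest wild-type. Kif23 rose by 0.94 ± 0.20 (SE, limma adjusted p = 0.00936) and by 0.43 ± 0.12 (0.0395), and the first call held in 17 of 19 alternatives and the second in 7. Prc1, which bundles midzone microtubules, missed the threshold by both probe sets (0.44 and 0.49, limma adjusted p = 0.0611 and 0.0878), and both were called without wild-type replicate 3 (0.49 and 0.60, with 0.0411 and 0.0369). Kif20a had 0.44 (limma adjusted p = 0.139), and the motor Kif11 had 0.06 (0.88). The microtubule-binding genes Tpx2 and Nusap1 had 0.25 and 0.24 by their brightest probe sets and were not called. The dimmer Tpx2 probe sets did not share a direction, with 0.27 by 1428105_at, -0.22 by 1447518_at and -0.25 by 1447519_x_at, and none was called.

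**Figure D3:**
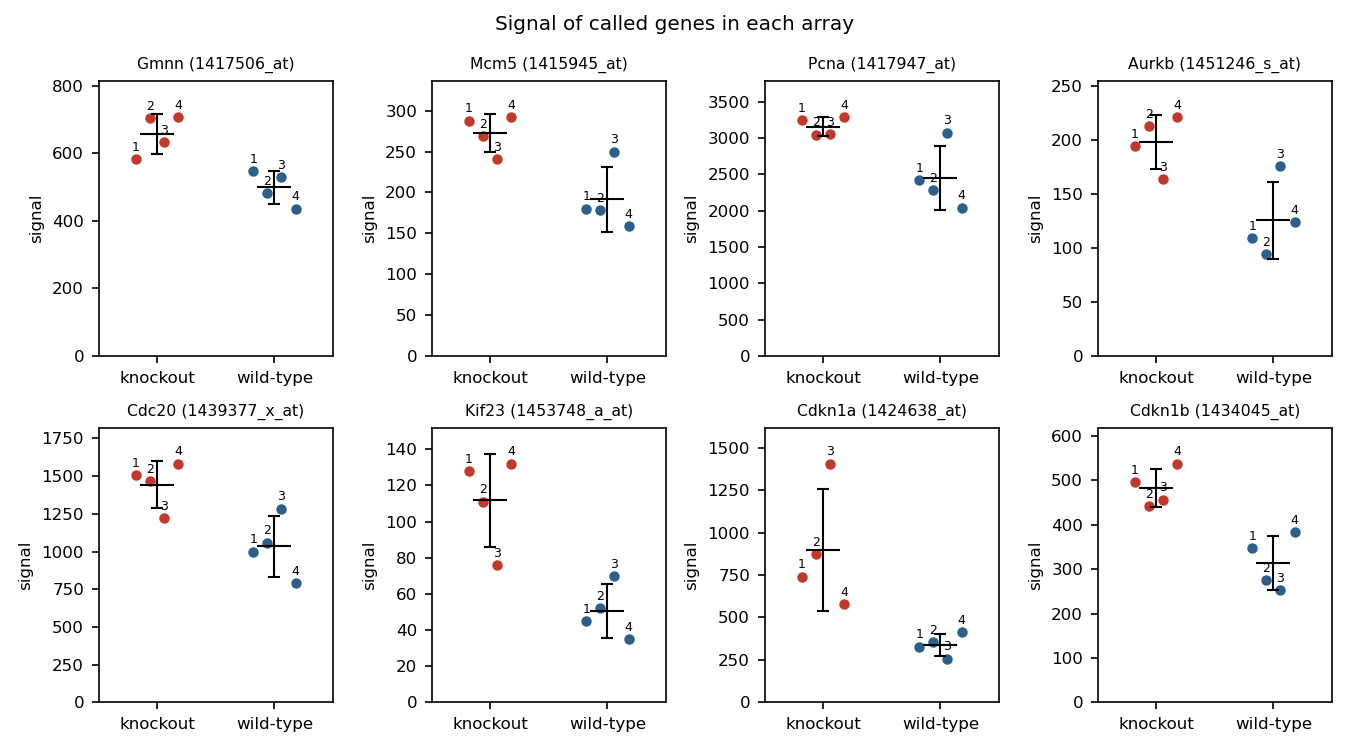
Signal (vertical axis, linear, from 0) of the 8 called genes in each array, knockout left and wild-type right, with replicate numbers beside the points; black marks are the mean ± SD of 4 arrays. Wild-type replicate 3 is the highest wild-type for Mcm5, Pcna, Aurkb, Cdc20 and Kif23 and the lowest for Cdkn1a and Cdkn1b.

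Both genes for inhibitors of cyclin-dependent kinases rose, by 3 of their 4 probe sets. Cdkn1a encodes p21, which stops the cycle on damage and in differentiating intestinal cells. By 1424638_at it gave 740, 871, 1405 and 577 in knockout replicates 1 to 4, against 329, 354, 257 and 415 in wild-type replicates 1 to 4. By 1421679_a_at it gave 142, 274, 277 and 182 in knockouts, against 104, 102, 86 and 88 in wild-types. The groups did not overlap by either. Cdkn1a rose by 1.31 ± 0.23 (SE, limma adjusted p = 0.00272) and by 1.04 ± 0.19 (0.00411), or 2.65 and 2.30 times by the mean signal. The second call held in all 19 alternatives, and the first in 18, the exception being the fit with the end ratio (limma adjusted p = 0.0884).

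Cdkn1b encodes p27, an inhibitor that accumulates in resting cells. By 1434045_at it gave 496, 442, 456 and 537 in knockouts, against 347, 275, 253 and 383 in wild-types. Every knockout lay above every wild-type, and Cdkn1b rose by 0.61 ± 0.14 (SE, limma adjusted p = 0.0124). The call held in all alternatives but the fit with the end ratio, where the rise was 0.52 (limma adjusted p = 0.222). The dim probe set 1419497_at gave 16 to 50 in knockouts and 23 to 48 in wild-types and was not called (-0.20). Within each genotype Cdkn1a (1424638_at) ran against most of the other genes. Knockout replicate 3 had the highest Cdkn1a signal and the lowest knockout signal in 41 of 57 genes (71.9%, against 37.3% of all genes). Knockout replicate 4 had the lowest knockout signal of Cdkn1a and the highest in 43 of 57 genes (75.4%, against 33.1%). Wild-type replicate 3 had the lowest Cdkn1a signal of all arrays. The second Cdkn1a probe set, 1421679_a_at, bore this order out in part only. Its highest knockout was also replicate 3 (277), but its lowest was replicate 1 (142, against 182 in replicate 4). Wild-type replicates 3 and 4 were nearly alike by it (86 and 88). The order rests on 4 arrays in each genotype and was not tested.

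Replication and mitosis genes can be compared within each array by their mean log2 signal. For replication genes it was 8.26, 8.24, 8.01 and 8.35 in knockout replicates 1 to 4, against 7.99, 7.89, 8.35 and 7.83 in wild-type replicates 1 to 4. For mitosis genes it was 8.37, 8.45, 8.22 and 8.60 in knockouts, against 8.10, 8.05, 8.39 and 7.88 in wild-types. For replication genes wild-type replicate 3 was the highest of all 8 arrays (8.354, against 8.347 in knockout replicate 4), and for mitosis genes it lay within the knockout range. The other wild-types lay below every knockout in both classes. Knockout minus wild-type was 0.20 for replication and 0.30 for mitosis genes, and 0.31 and 0.40 without wild-type replicate 3. The replication mean minus the mitosis mean was -0.25 to -0.11 in knockouts and -0.16 to -0.04 in wild-types, so the groups overlapped. Without the 6 G1/S genes, whose mean differed by -0.05, the other groups of replication genes differed by 0.20 to 0.35, and the groups of mitosis genes by 0.29 to 0.34.

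**Figure D4:**
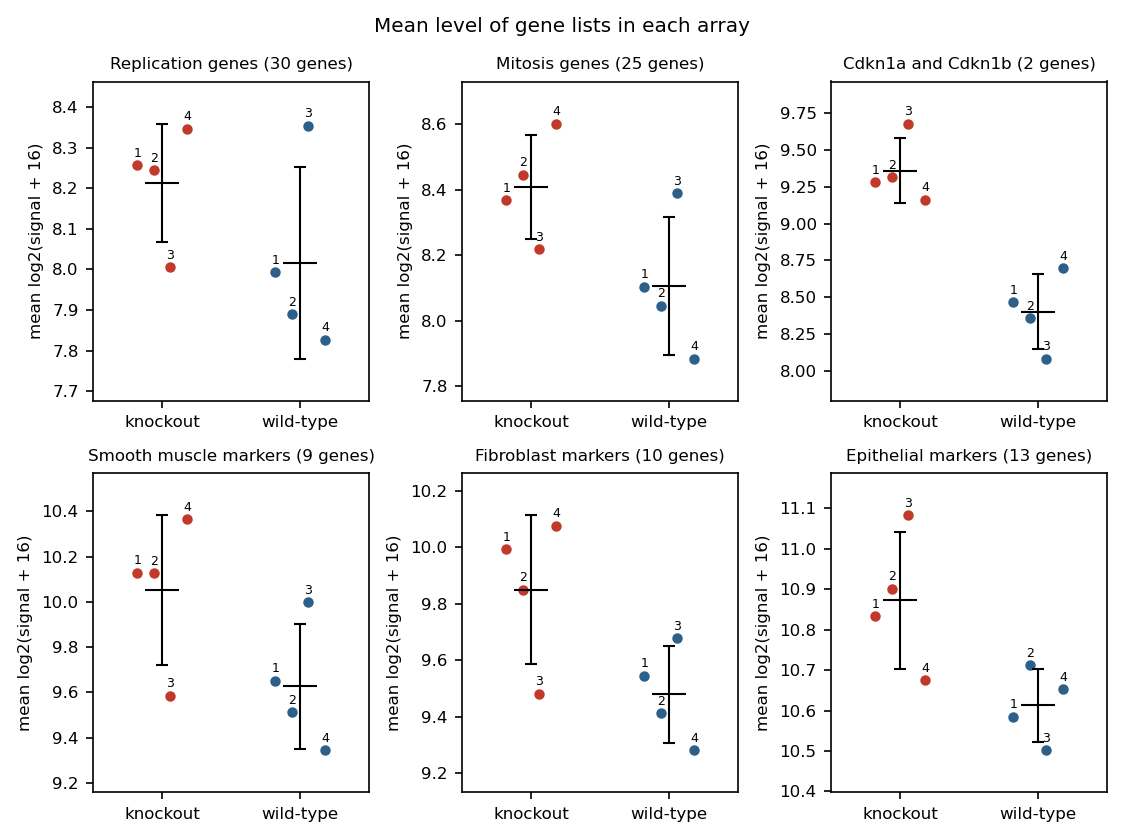
Mean log2(signal + 16) per array (vertical axes, not from 0) of replication genes, mitosis genes, the inhibitor genes and 3 lists of cell type markers, knockout left and wild-type right, with replicate numbers; black marks are the mean ± SD of 4 arrays. Wild-type replicate 3 lies at 8.35 for replication and 8.39 for mitosis genes, above the other wild-types, and smooth muscle and fibroblast markers are also highest among wild-types in that array.

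Markers of muscle and mesenchyme moved with these genes. Enteric nervous and erythroid markers, given under other observations, had wild-type replicate 3 as highest wild-type and knockout replicate 3 as lowest knockout in their sums. Knockout replicate 3 was also the lowest knockout for endothelial (1686), leukocyte (1522) and crypt progenitor markers (1958), so that position is not particular to muscle and mesenchyme. Its mean log2 signal over all genes tested (7.64) was the lowest of all arrays. The summed signal of 10 smooth muscle markers was 12635 to 20615 in knockouts and 10448 to 16920 in wild-types, where wild-type replicate 3 was the highest wild-type (16920) and knockout replicate 3 the lowest knockout (12635). Of the 9 tested, 1 was called higher and 0 lower (median log2 fold change 0.51), where 6.60% and 8.50% of all genes were called. The sum of 10 fibroblast markers was 11286 to 17575 in knockouts and 9810 to 14005 in wild-types, with the same arrays at the ends, and 2 of 10 were called higher and 0 lower. Without wild-type replicate 3 the numbers called higher were 5 of 9 for smooth muscle and 4 of 10 for fibroblast markers, against 9.31% of all genes. The sum of 13 epithelial markers was 28557 to 39001 in knockouts and 25525 to 29511 in wild-types, with 4 higher and 2 lower, and here knockout replicate 3 was the highest knockout (39001) and wild-type replicate 3 the lowest wild-type (25525). For crypt progenitors 4 of 11 tested markers were higher and 0 lower (Axin2, Cd44, Prom1 and Smoc2). Ascl2 was at -0.92 (limma adjusted p = 0.0562), and Olfm4 at -0.25 was called lower without wild-type replicate 3 (-0.68, 0.00756). The sum was 1958 to 2838 in knockouts and 1512 to 2460 in wild-types, lowest among wild-types in replicate 3 (1512). That low came from Olfm4, at 395 in wild-type replicate 3 and 1233 to 1496 in the other wild-types. Without Olfm4 the sums did not overlap, at 1200 to 1786 in knockouts and 940 to 1117 in wild-types. Wild-type replicate 3 was then the highest wild-type (1117). Leukocyte markers were lower in sum, at 1522 to 2148 in knockouts and 4070 to 5554 in wild-types, with 0 of 9 higher and 2 lower (Adgre1 and Csf1r, both macrophage markers). Csf1r alone gave 628 to 858 in knockouts and 2874 to 4306 in wild-types, and without it the sums overlapped, at 859 to 1290 in knockouts and 1117 to 1248 in wild-types. None of these markers was at 0 in every array, and their part in the results was not tested.

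Further genes of the same pathways, on lists of the same kind, were read in the same way. These lists too were chosen with earlier results of these data known, so their counts are description and not added support. Of 42 further replication genes 0 were called, with 29 above 0 and a median of 0.19. Of 39 further mitosis genes 2 were called higher and 0 lower, and all 39 were above 0 (median 0.17). Among all genes 6.60% were called higher and 8.50% lower, and 53.3% were above 0. At an unadjusted p under 0.05, 8 further replication genes were higher and 1 lower, and 11 further mitosis genes higher and 0 lower. The shares of all genes by that p were 14.7% and 15.0%. Smc4, a condensin subunit that compacts chromosomes, gave 1302, 1236, 1219 and 1378 in knockouts, against 850, 913, 1154 and 844 in wild-types without overlap. It rose by 0.45 ± 0.11 (SE, limma adjusted p = 0.0178), a call kept in 11 of 19 alternatives and ended without knockout replicate 1 or wild-type replicate 1, 2 or 4 (0.0526 to 0.0684). Cks1b, a small partner of cyclin-dependent kinases, rose by 0.53 ± 0.16 (limma adjusted p = 0.049), kept in 5 of 19 and ended without any 1 array other than the replicates numbered 3 (0.0903 to 0.139). Without wild-type replicate 3, 8 further replication genes were called higher and 1 lower, and 11 further mitosis genes higher and 0 lower, against 9.31% and 10.3% of all genes.

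Genes of G1 control included large falls. Of 24 tested, 1 was called higher and 5 lower, against 6.60% and 8.50% of all genes. Cdkn1c, which encodes p57, the third inhibitor of the p21 family, gave 659, 635, 430 and 887 in knockout replicates 1 to 4, against 5975, 6655, 5150 and 6093 in wild-type replicates 1 to 4. It fell by 3.20 on the log2 scale (SE 0.17, limma adjusted p = 5.52e-07), opposite to Cdkn1a and Cdkn1b. E2f8, a repressor among E2F factors, gave 216, 160, 139 and 133 in knockouts, against 521, 485, 462 and 601 in wild-types (-1.60 ± 0.15, limma adjusted p = 2.96e-05). E2f5, which represses with the retinoblastoma relatives, gave 242, 223, 184 and 284 in knockouts, against 584, 532, 553 and 502 in wild-types (-1.18 ± 0.13, limma adjusted p = 9.52e-05). The groups were far apart for these 3 genes, wild-type replicate 3 included, and the calls held in all 19 alternatives.

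The cyclin gene Ccnd3, a partner of Cdk4, gave 355, 317, 280 and 441 in knockouts, against 554, 604, 770 and 638 in wild-types. It fell by 0.86 (SE 0.15, limma adjusted p = 0.00214). Mycn gave 281, 279, 126 and 245 in knockouts, against 311, 370, 498 and 432 in wild-types. It fell by 0.79 (SE 0.23, limma adjusted p = 0.0422), with 9 of 19 alternatives keeping the call. The call ended without knockout replicate 4 or wild-type replicate 2, 3 or 4 (0.0561 to 0.108). Without wild-type replicate 3 Mycn was at -0.69 (limma adjusted p = 0.0784). Its relative Myc, a driver of growth and crypt proliferation, was the 1 gene called higher, with 346, 404, 250 and 318 in knockouts, against 168, 195, 186 and 194 in wild-types (0.76 ± 0.14, limma adjusted p = 0.00393). The calls of Ccnd3 and Myc ended in the fit with the end ratio (limma adjusted p = 0.123 and 0.131) and held in the other 18 alternatives. Groups did not overlap for any of these 3 genes.

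**Figure D5:**
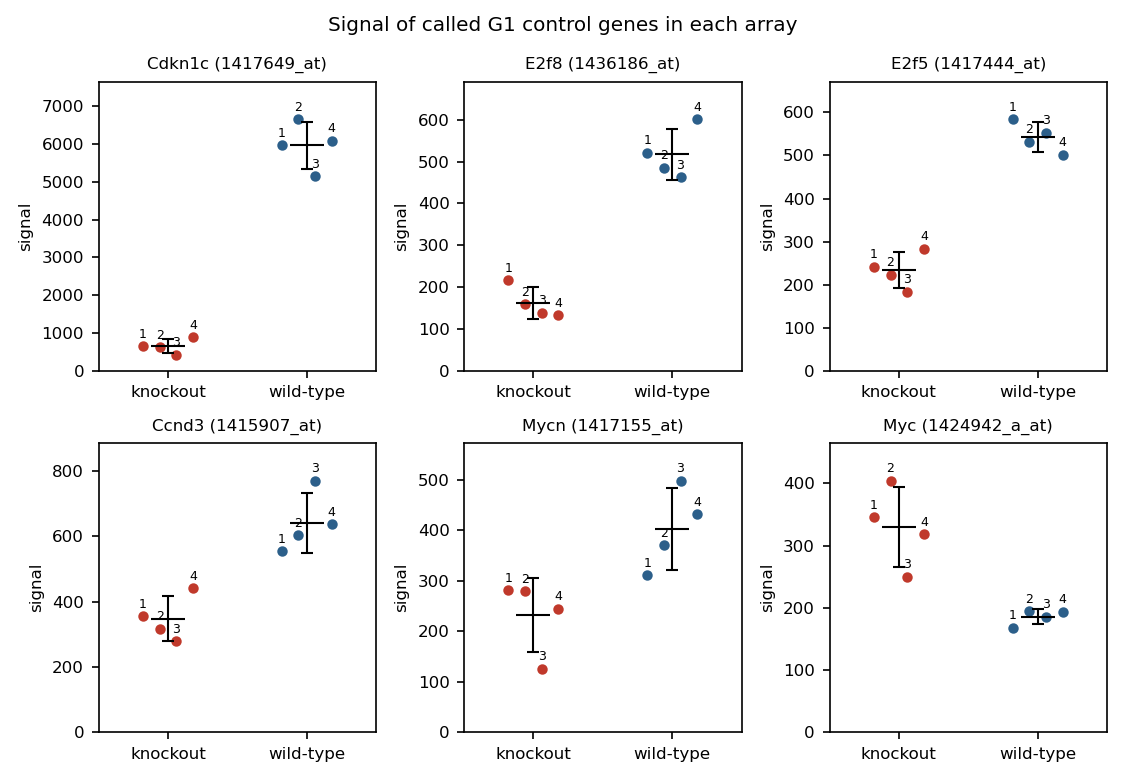
Signal (vertical axis, linear, from 0) of the 6 called genes of G1 control in each array, knockout left and wild-type right, with replicate numbers; black marks are the mean ± SD of 4 arrays. Cdkn1c lies at 430 to 887 in knockouts and 5150 to 6655 in wild-types, and Myc is the gene of the 6 that is higher in knockouts.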

How the data were processed

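Signal intensity per probe set, on a linear scale, was deposited by the authors for 8 arrays, and each array had been scaled to about the same trimmed mean (147 to 148 without the outer 2% at each end). Labelling was from oligo-dT primed cRNA, per the labels' protocols. The signal algorithm is not given in the sources used here. Members and lists were chosen with earlier results of these data known.

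Signals were transformed as log2(signal + 16). Array medians differed by 0.158 at most on this scale, under the limit of 0.32, so no normalization was added. Control probe sets (64) and the 40% of the rest with the lowest mean (under about 23.0) were left out, leaving 27022. limma 3.58.1 (R 4.3.3; lmFit, eBayes with an intensity trend) was fitted with genotype as the only term, and checked on simulated data. Each gene was taken by its brightest tested probe set. Symbols of the 133 member probe sets were found by Entrez ID in RefSeq (GRCm38.p6), and 0 differed. Any member may be named, and of the further lists up to 5 called genes each way. For arrays, their number limits the precision.

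Alternatives were other filters, offsets of 1 and 64, quantile normalization, each array left out, the 6 arrays with low Xist, the replicate number as a block, Xist or the end ratio (3' less 5' control signal) as a covariate, no trend, array weights, and the mean of a gene's probe sets.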

Additional observations from a re-analysis of the deposited data

Results flagged for a closer look

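With 4 arrays a group, the gap of the highest or lowest array to its nearest neighbour was set against the range of the group (Dixon's test at the 95% level), and chance alone picks about 1 in 20 groups. Of 118 groups, 8 passed. Among them wild-type replicate 3 was high for Mcm2 (405, the others 345 to 349), Mcm4 (708, the others 427 to 465) and Birc5 (883, the others 529 to 589), and wild-type replicate 1 was low for E2f2 (68, the others 103 to 110). Knockout replicate 3 was low for Mcm3 (322, the others 468 to 483) and Cdk4 (811, the others 978 to 991). Knockout replicate 4 was high for Ccnb2 (526, the others 393 to 414) and Rfc3 (177, the others all at 149). All are values of the brightest probe set.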

How the results depend on the processing

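The number of member probe sets called higher (10) was within 1.5 times in 5 of 19 alternatives. It was 5 with no filter, over the 6 arrays with low Xist and with Xist as a covariate, 4 with no intensity trend, 3 with the replicate number as a block, 1 with the end ratio and 34 with array weights. It was 4 to 33 with each array left out, 33 being without wild-type replicate 3, and the number called lower was 0 throughout. Over all probe sets the number higher (1427) was 876 to 2085 with each array left out, 807 with low Xist, 751 with the block, 755 with Xist and 471 with the end ratio as covariates, and 2631 with array weights. The number lower (1811) was 1164 with the block and 919 with the end ratio. Same-numbered samples are not paired by the labels, and their deviations from the group means correlated at -0.27 to -0.01. The median log2 fold change was 0.19 to 0.49 for replication genes (0.49 with the end ratio) and 0.23 to 0.46 for mitosis genes over 20 alternatives, above 0 in each. Genes near 0 changed sign without a call. With each array left out Mcm6 was at -0.14 to 0.0066, Gins2 at -0.098 to 0.031, E2f1 at -0.15 to 0.14, Bub3 at -0.038 to 0.19 and Kif11 at -0.050 to 0.20. With low Xist, Mcm6 was at 0.019, Gins2 at 0.011 and E2f1 at 0.23. With Xist as a covariate they were at 0.018, 0.00784 and 0.24. With the end ratio Mcm6 was at 0.052, Tyms at -0.11 and Cdc25c at 0.016, and with array weights E2f1 was at 0.076. The cause was not tested, except that leaving out an array lowers the number of samples.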

Other observations

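Markers of other cell types that whole intestine or its surroundings can hold gave the following values. Of 10 endothelial markers tested 0 were called, with a summed signal of 1686 to 2198 in knockouts and 1765 to 1995 in wild-types. Of 8 enteric nervous markers 0 were higher and 1 lower (S100b), with sums of 443 to 812 in knockouts and 424 to 659 in wild-types. Knockout replicate 3 was the lowest knockout (443) and wild-type replicate 3 the highest wild-type (659). Of 5 erythroid markers tested 0 were called by the brightest probe set, while 2 of their 8 tested probe sets were called lower. The sum of the 8 measured was 2673 to 3157 in knockouts and 2693 to 3209 in wild-types. The same arrays stood at these ends, knockout replicate 3 at 2673 and wild-type replicate 3 at 3209. Tfrc made up most of the erythroid sum, at 2081 to 2483 in knockouts and 2377 to 2690 in wild-types. Without Tfrc the sums were 317 to 950 in knockouts and 254 to 519 in wild-types. Of 7 pancreatic markers 0 were called, and their sum varied most between arrays, at 789 to 4719 in knockouts and 885 to 3309 in wild-types. The T cell marker Cd3e had a signal of at most 16 in every array.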
